A study of Mus musculus with 10 samples.

Results

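The ligands and receptors of the vascular endothelial growth factor (VEGF) and angiopoietin pathways were followed across cell types and days in the kidney cortex after injury. The group was defined by gene name and held 7 of the 28808 gene symbols in the tables: the ligands Vegfa, Angpt1 and Angpt2 and the receptors Kdr, Flt1, Nrp1 and Tek. All 7 had a row in each of the 10 libraries. Vegfa is a secreted growth factor that signals to endothelial cells mainly through Kdr (VEGF receptor 2), while Flt1 (VEGF receptor 1) binds it tightly and limits its action, and Nrp1 (neuropilin 1) is a co-receptor. Angpt1 activates the endothelial receptor Tek (Tie2) and stabilises vessels, whereas Angpt2 acts on the same receptor in a context-dependent way, often against Angpt1. In the kidney, podocytes are the classical source of Vegfa for the glomerular capillaries, and tubules supply the capillaries that surround them.

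The material was kidney cortex of mice aged 4 weeks, from normal kidneys (control, 1 library) or from injured kidneys at 6 times: days 1, 2 and 4 with 1 library each, and days 7, 11 and 14 with 2 each. Single cells were captured by Drop-seq, which reads the 3' end of each RNA molecule on a barcoded bead. The labels give no kind of injury, strain, sex or animal, and do not say whether the 2 libraries of a day came from different animals, so the p-values measure only the spread between these libraries. Counts were read as unique molecular identifiers (UMIs), that is, single captured RNA molecules.

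Cells were assigned to 13 classes by marker genes that include none of the 7, and 44008 of 52797 cells (83.4%) received a class. The unassigned share was 5.19% to 33.5% of a library and highest on day 1, and the median depth was 1244 to 2661.5 UMIs per cell. The endothelial gate held 136 to 329 cells per library, with UMIs of all 6 of its markers in every library and a summed level of 4780 to 6858 CPM (UMIs of these genes in 1000000 UMIs of the gate). The podocyte gate held 14 to 227 cells, with all 6 markers in every library, and the stromal gate (mural cells and fibroblasts) 18 to 128. The tubular gate joined 6 epithelial gates and held 1283 to 6137 cells. Tubular makeup differed between libraries: proximal cells were 3552 of 5116 tubular cells in the control, but 302 of 1283 and 386 of 1798 on day 7. The injured tubule gate, 1 of these 6, held 0 cells in the control and in the day 14 libraries, but 208 and 257 on day 7. Levels are given as CPM of the UMIs summed over the cells of a class in 1 library. Because reads come from the 3' end, levels are compared between classes and days for 1 gene, not between genes.

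All 7 genes lie on the mouse build GRCm38 at positions taken from GENCODE M21. Vegfa is at chr17:46016993-46032369 and Kdr at chr5:75932827-75978458. Flt1 is at chr5:147561604-147726011, Nrp1 at chr8:128358604-128503363 and Tek at chr4:94739289-94874976. Angpt1 (chr15:42424723-42676977) overlaps Gm17473 and Angpt2 (chr8:18690263-18741562) overlaps Mcph1, both on the opposite strand. The sources do not say whether counting used strand, so reads of either overlapping pair cannot be told apart.

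The 250 bases upstream of the start site are shown for the ligand with the most tubular UMIs and for both VEGF receptors measured mainly in endothelial cells. Sequences are RefSeq's on GRCm38.p6, in the direction of the gene, all on the minus strand; RefSeq promoters matched 5 of the 7 genes. Capitals mark the GC box GGGCGG or its complement CCGCCC.
Vegfa, chr17:46032378-46032627: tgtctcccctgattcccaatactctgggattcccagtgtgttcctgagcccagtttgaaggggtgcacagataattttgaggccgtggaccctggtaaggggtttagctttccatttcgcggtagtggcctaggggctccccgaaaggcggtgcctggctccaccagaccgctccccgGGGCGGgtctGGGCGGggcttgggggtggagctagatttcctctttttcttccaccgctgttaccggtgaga
Kdr, chr5:75978456-75978705: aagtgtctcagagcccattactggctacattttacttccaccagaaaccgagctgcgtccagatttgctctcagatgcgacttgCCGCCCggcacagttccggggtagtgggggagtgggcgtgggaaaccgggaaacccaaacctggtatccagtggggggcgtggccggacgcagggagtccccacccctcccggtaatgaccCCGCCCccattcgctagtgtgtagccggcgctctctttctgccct
Flt1, chr5:147726012-147726261: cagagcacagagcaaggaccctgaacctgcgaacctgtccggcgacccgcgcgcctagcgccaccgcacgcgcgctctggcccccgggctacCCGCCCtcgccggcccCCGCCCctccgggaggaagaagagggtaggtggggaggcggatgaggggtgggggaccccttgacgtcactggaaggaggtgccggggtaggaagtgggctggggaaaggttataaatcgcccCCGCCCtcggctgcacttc
The GC box occurred 2 times upstream of Vegfa, 2 times upstream of Kdr and 3 times upstream of Flt1, on either strand, and in 32.7% of all 32851 RefSeq mouse promoter windows of the same length. The hypoxia response core ACGTG, searched on both strands, had 0 matches in these 3 windows and was present in 16.6% of all windows. A second RefSeq window of Vegfa, chr17:46025164-46025413, is not shown and held 1 match of ACGTG and 1 GC box. That window lies within the span of the gene itself, not upstream of it.

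Vegfa, the main VEGF ligand, was measured at its highest level in podocytes, while tubular cells, the most numerous class, held most of its UMIs. In podocytes its level was 1562 CPM in the control, 979.8 on day 1, 1133 on day 2, 1267 on day 4, 884 and 1115 on day 7, 861 and 721 on day 11, then 868 and 989.7 on day 14. In tubular cells the same libraries gave 110.2, 51.3, 57.7, 43.4, 53.4 and 40.9, 80.6 and 71.7, and 81.3 and 70.7 CPM. Every podocyte value was above every tubular value, and the fitted difference was 3.63 on the log2 scale (SE 0.20, adjusted p = 4.99e-15, edgeR quasi-likelihood test with library as a block, 10 libraries). Among the 9910 genes tested between podocytes and tubular cells, 45.8% passed. Vegfa was 1.51 lower in stromal than in tubular cells (SE 0.34, adjusted p = 4.19e-04), a comparison in which 39.6% of 10002 genes passed, with 1 to 8 stromal Vegfa UMIs per library. In endothelial cells, Vegfa was 0.53 lower than in tubular cells (SE 0.16, adjusted p = 0.00889; 64.7% of 10752 genes passed), and without scaling factors the value was -0.26 (adjusted p = 0.152). As shares of all Vegfa UMIs in a library, tubular cells held 51.0% to 94.5% (median 75.4%), podocytes 2.36% to 24.2% (median 13.4%) and unassigned cells 2.43% to 22.8%.

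**Figure D1:**
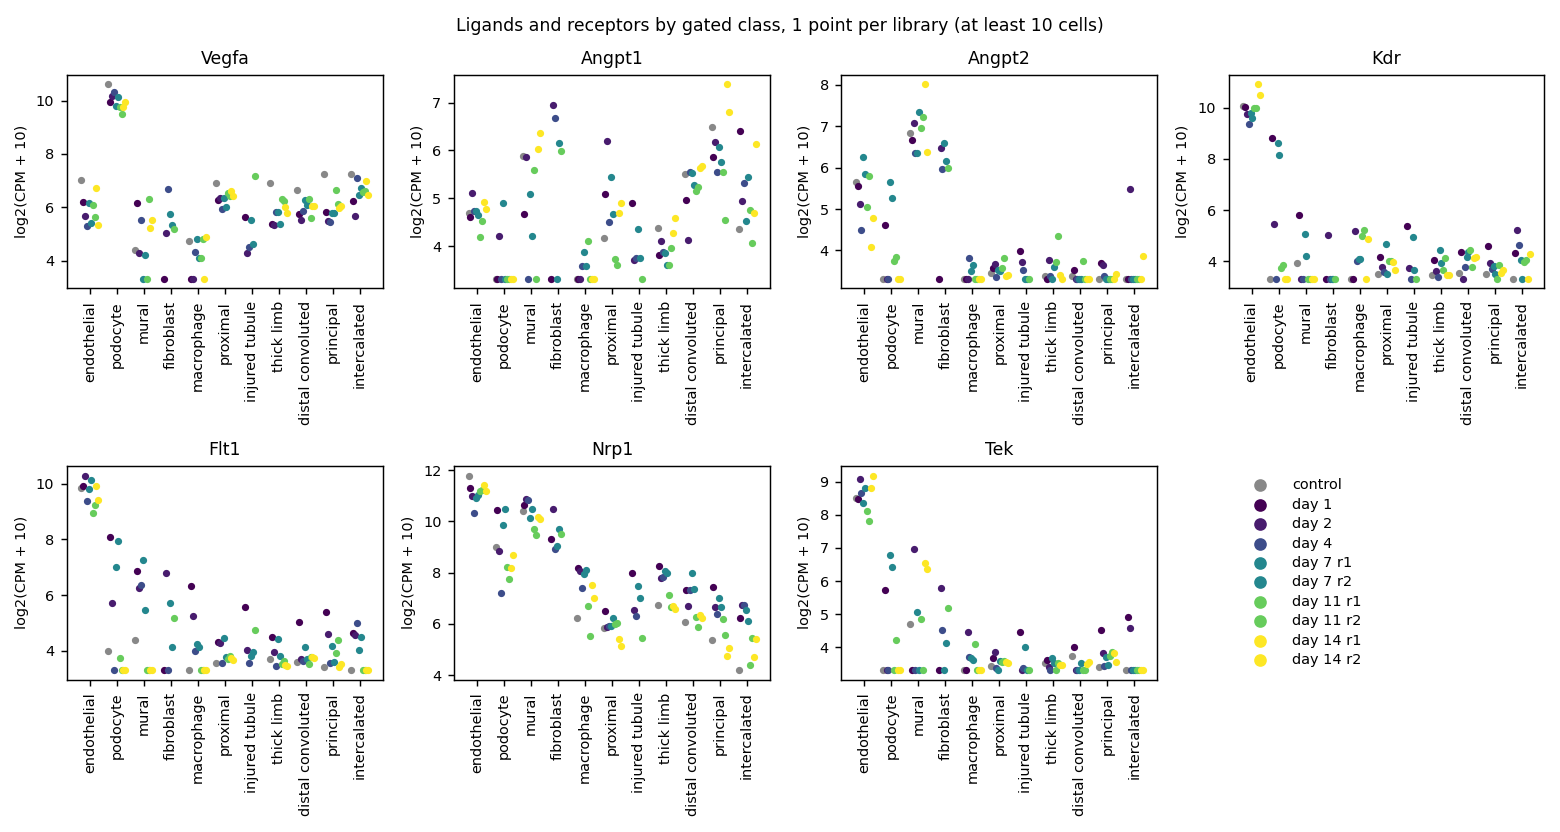
Level of each ligand and receptor in 11 gated classes, as log2(CPM + 10) of summed UMIs (vertical axis), 1 point per library with at least 10 cells, coloured by day. Vegfa stands highest in podocytes (721 to 1562 CPM), Angpt2 in mural cells, and Kdr, Flt1 and Tek in endothelial cells, whereas Nrp1 is also present in mural, fibroblast and tubular classes.

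**Figure D2:**
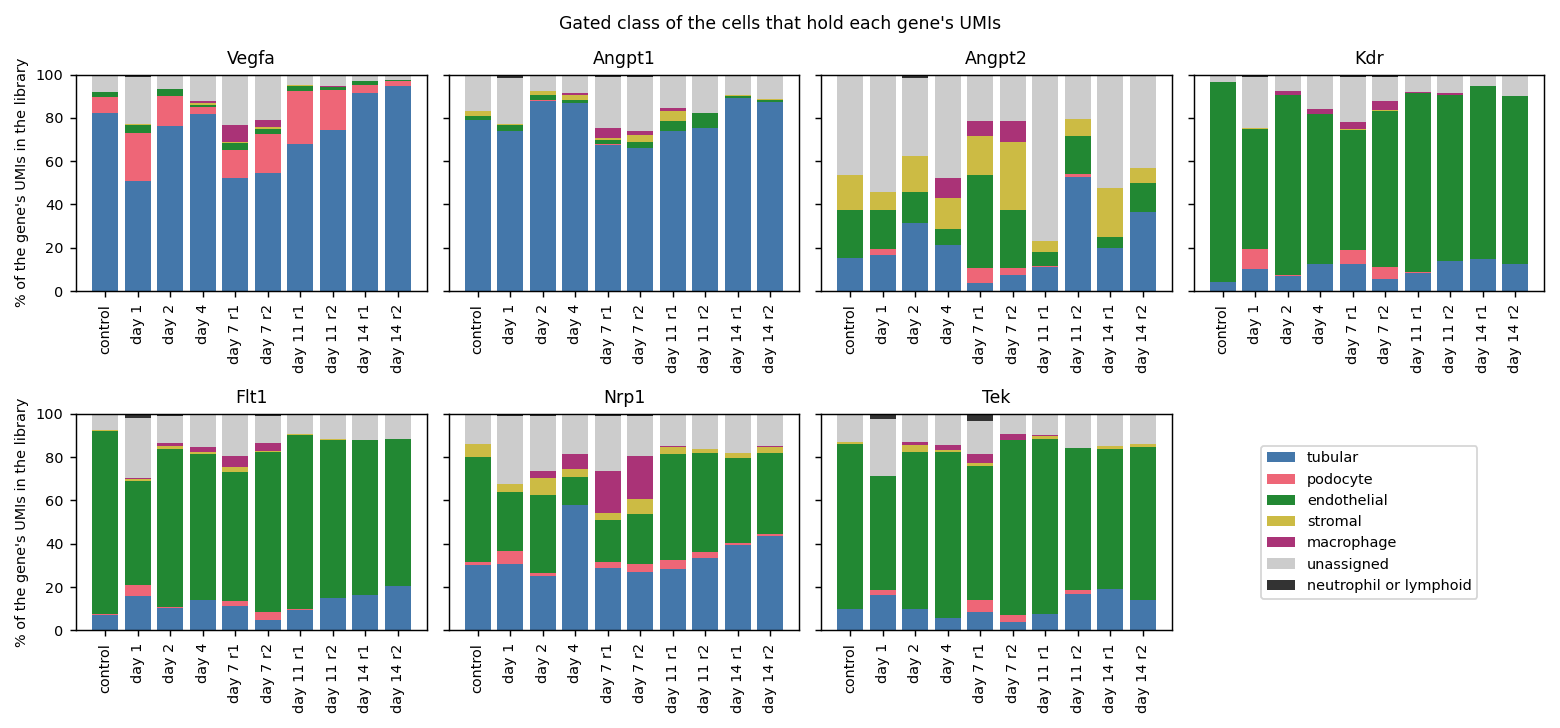
Share of each gene's UMIs in a library (vertical axis, percent) that lay in cells of each class, 1 bar per library. Tubular cells hold 51.0% to 94.5% of Vegfa UMIs, endothelial cells 55.2% to 92.1% of Kdr UMIs, and unassigned cells 20.5% to 77.1% of Angpt2 UMIs.

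Tubular Vegfa fell from the control to day 7 and rose from day 7 to days 11 and 14. The control stood at 110.2 CPM (exact Poisson 95% interval 106 to 114), above all 9 injured libraries, and day 7 at 47.2 ± 8.85 (SD, n = 2). Day 11 reached 76.2 ± 6.31 (SD, n = 2) and day 14 reached 76.0 ± 7.54 (SD, n = 2), with no overlap with day 7. The fitted log2 change was -2.05 for day 7 against control (SE 0.21, adjusted p = 5.22e-05), 1.5 for day 11 against day 7 (SE 0.18, adjusted p = 1.09e-04) and 1.56 for day 14 against day 7 (SE 0.18, adjusted p = 6.39e-05), all by edgeR. Of the 16004 genes tested in tubular cells, 36.3%, 44.7% and 46.6% passed in these comparisons, so a call in tubular cells was common. For day 14 against control, where 7.98% of genes passed, Vegfa gave -0.49 (SE 0.20, adjusted p = 0.152).

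The size of these tubular changes depended on scaling between libraries. The factors by trimmed mean of M-values (TMM) were 0.807 for the control, 1.44 and 1.40 for day 7, and 0.78 to 0.82 for days 11 and 14. With totals alone, the median change of all tubular genes for day 7 against control was 0.83 instead of 0.02, and 87.5% instead of 47.8% of called genes were higher. The same split was 15.7% instead of 52.1% for day 11 against day 7, and 14.5% instead of 52.2% for day 14 against day 7. On that scale Vegfa gave -1.24 (adjusted p = 9.71e-04), 0.71 (0.00698) and 0.70 (0.00633) in the same order, and kept its direction. The median shifts of the later comparisons were -0.84 and -0.86.

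In proximal, thick limb and principal cells the control was again the highest library, and the mean of day 7 was below those of days 11 and 14. Distal convoluted cells did not show the later rise, with 90.1 CPM in the control, 67.3 and 58.0 on day 7, 69.5 and 38.5 on day 11, then 56.4 and 56.3 on day 14. Intercalated cells gave 142, 77.4 and 96.0, 84.5 and 86.5, then 115 and 78.4 CPM in that order. Injured tubule cells, with 0 cells in the control, had 35.4 and 14.3 CPM on day 7 (17 and 21 UMIs). Their part in the fall of all tubular cells was not tested. Proximal Vegfa, in the cells that reabsorb most of the filtrate, was 109 CPM in the control, 71.5 and 54.0 on day 7, and 76.1 to 88.5 on days 11 and 14. Thick limb Vegfa was 112 CPM in the control, 47.3 and 31.8 on day 7, and 45.8 to 69.0 on days 11 and 14, so that 1 day 14 library lay below 1 day 7 library. Principal cells of the collecting duct had 143 CPM in the control, 45.2 and 44.9 on day 7, and 52.6 to 89.3 later. For day 7 against control the fitted change was -1.64 in proximal, -2.24 in thick limb and -2.04 in principal cells, each past the threshold. Day 14 against day 7 gave 0.68 in principal cells (adjusted p = 0.0789). For day 14 against control, thick limb cells gave -1.18 (adjusted p = 0.0161) and principal cells -1.37 (adjusted p = 0.0144), both past the threshold. Proximal cells gave -0.54 (adjusted p = 0.139). All tubular cells together passed with only the groups compared in the fit (-0.55, adjusted p = 0.0295).

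**Figure D3:**
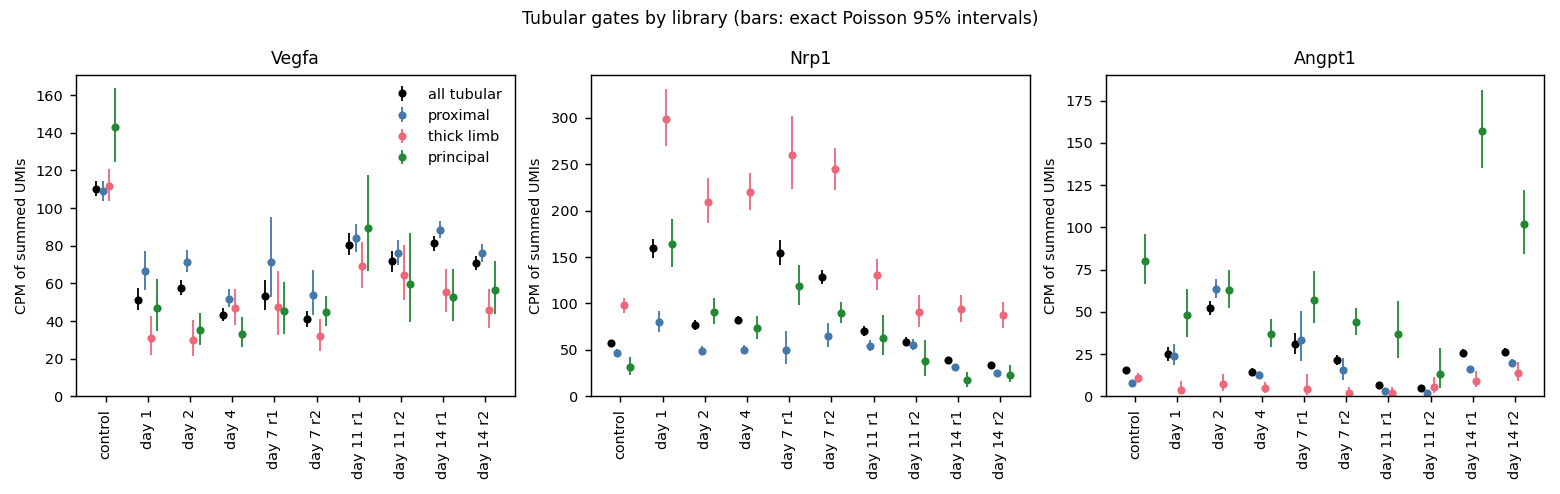
Vegfa, Nrp1 and Angpt1 in all tubular cells and in proximal, thick limb and principal cells, as CPM of summed UMIs (vertical axis) by library, with exact Poisson 95% intervals. Vegfa is highest in the control in all 4 series, Nrp1 is highest on days 1 to 7 in thick limb and principal cells, and Angpt1 is highest in principal cells in most libraries.

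Endothelial Vegfa was 120 CPM in the control (83 UMIs) and 61.2 and 32.2 on day 7 (11 and 15 UMIs). Day 7 was lower by the test (log2 change -1.71, SE 0.45, adjusted p = 0.0264), where 4.39% of 7811 genes passed. The call was lost without day 7 replicate 2 (-1.19, adjusted p = 0.360), by DESeq2 (-1.62, adjusted p = 0.9998), in Ehd3-bearing cells alone (-1.46, adjusted p = 0.149) and without scaling factors (-1.51, adjusted p = 0.0559). Proximal markers in the same endothelial gate summed to 307 CPM in the control and 111 and 47.2 CPM on day 7. Podocyte markers there summed to 119 CPM in the control and 167 and 167 CPM on day 7. The part of either in the Vegfa value was not tested. Ehd3-bearing cells held Vegfa at 173 CPM in the control (57 UMIs) and 94.7 and 58.8 CPM on day 7, and Plvap-bearing cells had 1 UMI in the control and 0 and 1 on day 7.

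Angpt1, the Tek agonist, was measured mainly in tubular cells and stood highest in principal cells and stroma. Tubular cells held 66.2% to 89.1% of its UMIs, and podocytes only 2 of 3444. Principal cells gave 80.4 CPM in the control, 48.0, 62.8 and 36.7 on days 1, 2 and 4, 57.3 and 43.9 on day 7, 36.8 and 13.3 on day 11, then 157 and 102 on day 14. Proximal cells gave 7.90, 24.0, 63.6, 12.7, 33.5 and 15.4, 3.27 and 2.09, and 16.0 and 19.8 CPM in that order. Both classes had their lowest library on day 11, and principal cells their highest on day 14. Stromal Angpt1 ranged from 0 to 77.8 CPM on at most 15 UMIs per library, was 0.83 higher than tubular (SE 0.31, adjusted p = 0.0307), and lost that call with no filter on low counts (0.58, adjusted p = 0.207). Podocyte Angpt1 was 3.75 lower than tubular on the log2 scale (adjusted p = 8.51e-06). Endothelial Angpt1 (8.35 to 24.8 CPM) was 0.58 lower than tubular (adjusted p = 0.0184), but -0.13 (adjusted p = 0.676) when cells with 2 markers of another class were left out and -0.33 (adjusted p = 0.220) without scaling factors.

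By day, tubular Angpt1 was 15.4 CPM in the control, 24.9 on day 1, 52.4 on day 2, 14.6 on day 4, 30.7 and 21.3 on day 7, 6.86 and 4.74 on day 11, then 25.5 and 26.4 on day 14. It fell from day 7 to day 11 (log2 change -1.35, SE 0.25, adjusted p = 0.00148) and rose from day 7 to day 14 (0.88, SE 0.22, adjusted p = 0.0074). The rise was not seen with totals alone (0.02, adjusted p = 0.933), missed the threshold without day 7 replicate 2 (0.64, adjusted p = 0.0588), and was 2.65 in thick limb, 1.79 in principal and 0.38 in proximal cells (adjusted p = 0.404 in the last). The day 11 value was -2.35 in proximal cells, -0.65 in principal cells (adjusted p = 0.296) and 0.93 in thick limb cells (adjusted p = 0.382). Day 7 against control gave -0.09 (adjusted p = 0.819), with 0.72 (adjusted p = 0.0455) on totals alone. Segments went both ways, with -2.56 in thick limb (adjusted p = 0.00585), -1.08 in principal (adjusted p = 0.0567) and 0.66 in proximal cells (adjusted p = 0.218), and their difference was not tested. Day 14 against control gave 0.79 (SE 0.26, adjusted p = 0.0842), and passed the threshold with only the groups compared in the fit (0.73, adjusted p = 0.0133).

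Angpt2, the context-dependent Tek ligand, was a rare RNA (788 UMIs in all cells). Among libraries with at least 10 cells of a class, its highest level was in mural cells, the contractile cells of vessel walls. Fibroblasts reached 327 CPM in day 11 replicate 2, on 4 UMIs in 4 cells. Mural cells and fibroblasts were not compared by a test. Mural Angpt2 was 103.5 CPM in the control, 91.9, 125 and 71.9 on days 1, 2 and 4, 71.6 and 153 on day 7, 115 and 139 on day 11, then 248 and 72.4 on day 14, on 2 to 19 UMIs per library. These values overlapped between days. Stromal Angpt2 was 6.08 higher than tubular on the log2 scale (SE 0.38, adjusted p = 1.98e-16), and endothelial Angpt2 was 4.24 higher than tubular (SE 0.41, adjusted p = 1.83e-07).

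Endothelial Angpt2 was 40.5 CPM in the control, 37.4, 24.8 and 12.4 on days 1, 2 and 4, 66.7 and 47.2 on day 7, 23.0 and 46.0 on day 11, then 6.84 and 17.5 on day 14. Day 7 was above days 11 and 14 in each library, but the day 14 libraries held 2 and 4 UMIs. Day 14 against day 7 gave -2.04 (SE 0.61, adjusted p = 0.0594) and missed the threshold. It passed in 3 of 14 alternatives: no filter on low counts (-2.07, adjusted p = 0.0352), a gate of at least 3 markers (-2.97, adjusted p = 0.0129) and totals alone (-2.20, adjusted p = 0.0339). In Ehd3-bearing cells alone it was -0.84 (adjusted p = 0.813), and leaving out 1 replicate gave -2.77 to -1.47, each short of the threshold.

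Tubular Angpt2 lay between 0.298 and 4.52 CPM (1 to 41 UMIs per library), with the highest value in day 11 replicate 2. Day 11 was higher than day 7 by the test (log2 change 3.29, SE 0.64, adjusted p = 0.00204), from 1 and 6 UMIs to 19 and 41. The call was lost with a gate of at least 3 markers (1.86, adjusted p = 0.0789), in proximal cells alone (1.84, adjusted p = 0.119) and in thick limb cells alone (2.62, adjusted p = 0.0728). Unassigned cells of day 11 replicate 1 held 131 Angpt2 UMIs in 37 cells, 46 of them in 1 cell, and over all libraries 20.5% to 77.1% of Angpt2 UMIs lay in unassigned cells.

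Kdr, the main signalling receptor of Vegfa, was measured mainly in endothelial cells, and in these it was highest on day 14. Of 5289 Kdr UMIs, 4043 lay in the endothelial gate. Endothelial Kdr was 1063 CPM in the control, 1043 on day 1, 851 on day 2, 650.4 on day 4, 884 and 775 on day 7, 1005 and 1006 on day 11, then 1931 and 1454 on day 14. The 2 day 14 libraries were above all others and the day 4 library was lowest. Kdr rose from day 7 to day 14 (log2 change 1.19, SE 0.23, adjusted p = 0.00184), where 4.6% of 7811 genes passed. The call was lost without day 14 replicate 1 (0.96, adjusted p = 0.0730). Day 7 against control gave -0.56 (SE 0.26, adjusted p = 0.318) and day 14 against control 0.63 (SE 0.27, adjusted p = 0.260).

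Kdr was 7.66 higher in endothelial than in tubular cells on the log2 scale (SE 0.31, adjusted p = 1.12e-11). Tubular Kdr was 1.34 to 10.95 CPM, and the 6 endothelial markers together were 17 to 71 CPM in the same tubular gate, both highest in the day 1 library. In the podocyte gate, Kdr was 439, 382 and 276 CPM in the libraries of day 1 and day 7 and 0 to 34.1 CPM in the other 7. Endothelial markers in that gate were 1498, 1426 and 991 CPM in these 3 libraries and 0 to 162 CPM in the others, and their part in the podocyte values was not tested.

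Kdr also differed between kinds of endothelial cell. Cells with a UMI of Ehd3, a marker of the glomerular endothelium, and none of Plvap were set against cells with Plvap, a marker of fenestrated capillaries outside the glomerulus and of veins, and no Ehd3; this comparison was added after the levels had been seen. Ehd3-bearing cells had 1598 CPM of Kdr in the control, 1548, 1557 and 1543 on days 1, 2 and 4, 1298 and 1430.2 on day 7, 1627 and 1427 on day 11, then 2713 and 2185 on day 14. Plvap-bearing cells had 599 CPM in the control, 144, 198 and 236 on days 1, 2 and 4, 255 and 293 on day 7, 205 and 114 on day 11, then 679 and 240.1 on day 14. The lowest Ehd3-bearing value was above the highest Plvap-bearing value. The fitted difference was 2.55 (SE 0.17, adjusted p = 2.09e-10), where 22% of 1971 genes passed. Ehd3-bearing cells made up 49.5% to 93.1% of both kinds, lowest on day 4. For day 14 against day 7, Kdr gave 1.0 in Ehd3-bearing cells alone (adjusted p = 0.0226) and 0.81 in Plvap-bearing cells alone (adjusted p = 0.450).

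**Figure D4:**
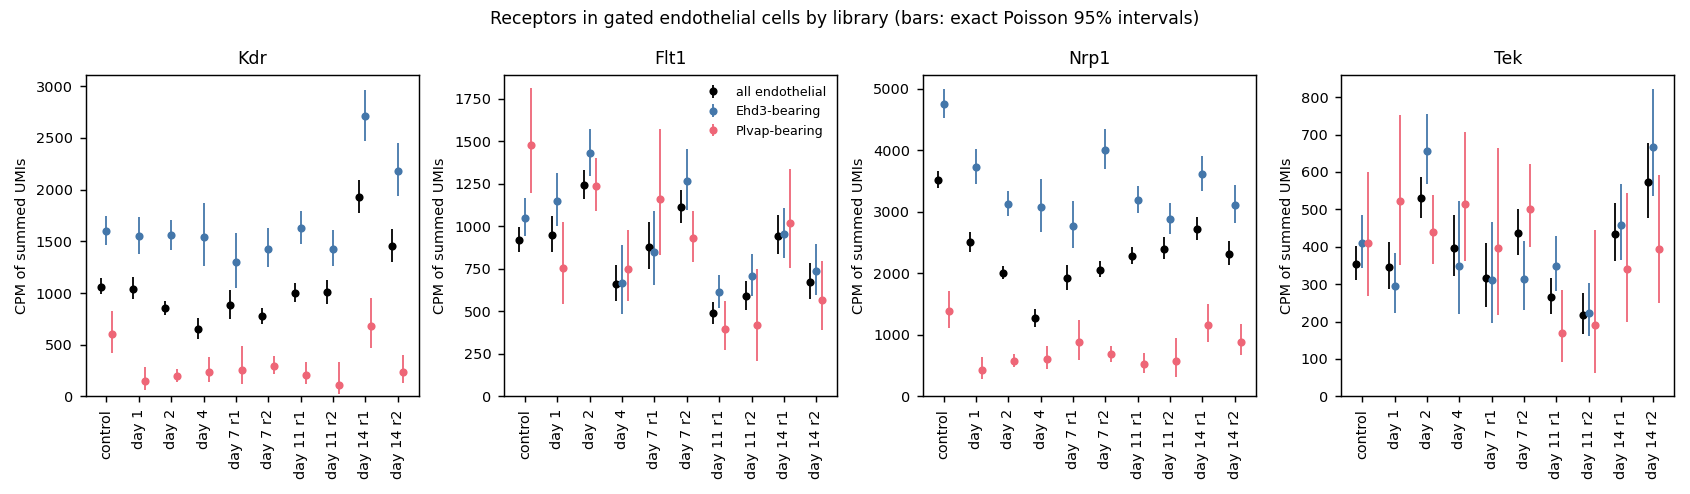
Kdr, Flt1, Nrp1 and Tek in all endothelial cells and in Ehd3-bearing and Plvap-bearing cells, as CPM of summed UMIs (vertical axis) by library, with exact Poisson 95% intervals. Kdr and Nrp1 are higher in Ehd3-bearing cells in all 10 libraries, while the intervals of Flt1 and Tek in the 2 kinds of cell overlap in most libraries.

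Flt1, which binds Vegfa and limits its signalling, was also mainly endothelial. Endothelial cells held 47.9% to 84.8% of its UMIs, and the level was 7.29 higher than in tubular cells on the log2 scale (SE 0.29, adjusted p = 1.11e-11). Endothelial Flt1 was 921 CPM in the control, 951 on day 1, 1244 on day 2, 663 on day 4, 878 and 1114 on day 7, 489 and 589 on day 11, then 947 and 672 on day 14. Day 11 was lower than every other library. For day 11 against day 7, where 10.3% of 7811 genes passed, Flt1 gave -0.65 (SE 0.24, adjusted p = 0.0845), and it passed with totals alone (-0.92, adjusted p = 0.0109), without day 7 replicate 1 (-0.88, adjusted p = 0.0421) and in Plvap-bearing cells alone (-1.16, adjusted p = 0.0427). Flt1 was at 613 to 1430 CPM in Ehd3-bearing and 399 to 1482 CPM in Plvap-bearing cells, with a difference of 0.15 (SE 0.13, adjusted p = 0.509). Stromal Flt1, 0 to 108 CPM on 41 UMIs over all libraries, was 2.47 higher than tubular Flt1 (SE 0.38, adjusted p = 1.14e-06). Only 4 alternatives held a value for it, and it passed in these 4. The part of endothelial RNA in the stromal gate was not tested.

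Nrp1, the co-receptor, was measured in many classes. Endothelial cells held 12.95% to 49.1% of its UMIs, tubular cells 25.2% to 58.0%, and macrophages up to 20.1%. Endothelial Nrp1 was 3520 CPM in the control, 2503 on day 1, 2012 on day 2, 1268 on day 4, 1929 and 2063 on day 7, 2289 and 2404 on day 11, then 2727 and 2323 on day 14. All 9 injured libraries were below the control. Day 7 was lower than the control by the test (log2 change -1.01, SE 0.24, adjusted p = 0.0148). The call was lost by DESeq2 (-1.01, adjusted p = 0.0977), without day 7 replicate 1 (-0.93, adjusted p = 0.0515), without scaling factors (-0.80, adjusted p = 0.0541), and in Ehd3-bearing (-0.68, adjusted p = 0.317) and Plvap-bearing cells alone (-1.11, adjusted p = 0.144).

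Nrp1 was 4.62 higher in endothelial than in tubular cells (SE 0.24, adjusted p = 1.62e-10), 3.52 higher in stromal (SE 0.20, adjusted p = 2.01e-17) and 2.35 higher in podocytes (SE 0.21, adjusted p = 1.20e-10). Without the libraries of day 1 and day 7, the podocyte value was 2.0, and that of Vegfa was 3.32. Mural Nrp1 was 694 to 1842 CPM. Podocyte Nrp1 was 1398 CPM on day 1 and 924 and 1429 CPM on day 7, within the mural range. In these libraries the podocyte gate also held the most endothelial markers, whose part in the Nrp1 values was not tested. In the other libraries podocyte Nrp1 was 136 to 502 CPM, below every mural value. Between endothelial cells, Nrp1 was 2772 to 4756 CPM in Ehd3-bearing and 433 to 1388 CPM in Plvap-bearing cells, a difference of 2.21 (SE 0.14, adjusted p = 8.79e-11).

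Tubular Nrp1 was 58.0 CPM in the control, 159 on day 1, 76.7 on day 2, 82.3 on day 4, 154 and 128 on day 7, 70.2 and 58.8 on day 11, then 39.5 and 34.1 on day 14. Days 1 and 7 were high, and day 14 was below every other library. Markers of 2 other classes were also higher on day 7 than in the control in the same gate. On day 14 Nrp1 was below its control value, but these markers were not. The summed level of 5 macrophage markers was 6.92 CPM in the control, 167 and 59.0 on day 7 and 7.59 and 8.71 on day 14, and that of 6 endothelial markers 17, 52 and 25, and 22.2 and 17.1 CPM. Macrophages themselves had Nrp1 at 236 and 266 CPM on day 7. The part of cells with fewer than 2 such markers was not tested. Tubular Nrp1 fell from day 7 to day 14 (log2 change -1.08, SE 0.17, adjusted p = 5.22e-04), and the value in proximal cells alone was -0.37 (adjusted p = 0.251). Day 11 against day 7 gave -0.34, short of the threshold, which it passed without cells that had 2 markers of another class (-0.60, adjusted p = 0.0158), with totals alone (-1.13, adjusted p = 3.97e-04) and in thick limb cells alone (-0.60, adjusted p = 0.0430). In proximal cells alone that value was 0.59 (adjusted p = 0.0692). Day 7 against control gave 0.47 (SE 0.21, adjusted p = 0.109), 0.64 (adjusted p = 0.0339) without cells that had 2 markers of another class, and 1.28 (adjusted p = 0.00113) with totals alone. In the scaled fits segments differed in direction. Principal cells gave 1.31 (adjusted p = 0.0208), thick limb cells 0.70 (adjusted p = 0.0576) and proximal cells -0.48 (adjusted p = 0.197). This difference between segments was not tested. Proximal Nrp1 was 47.0 CPM in the control and higher on day 7, at 50.2 and 64.9 CPM, so the sign of -0.48 depended on scaling. On day 11 proximal Nrp1 was 54.5 and 55.6 CPM, between the 2 day 7 values. Thick limb Nrp1 was 97.8 CPM in the control, 299, 209 and 220.0 on days 1, 2 and 4, 260.1 and 244 on day 7, and 87.1 to 130.3 on days 11 and 14. Injured tubule cells, with 0 cells in the control, had 245 CPM on day 1 and 169 and 120 CPM on day 7. Their part in the tubular values was not tested.

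Tek, the angiopoietin receptor, was endothelial, with 52.4% to 80.9% of its UMIs in that gate. Its level was 355 CPM in the control, 345 on day 1, 529 on day 2, 398 on day 4, 317 and 436 on day 7, 265 and 217 on day 11, then 434 and 572 on day 14. Day 11 was lowest, and day 14 overlapped day 7. Tek was 7.44 higher than in tubular cells (SE 0.32, adjusted p = 2.36e-11), where it was 0.42 to 6.05 CPM. No contrast of days passed for Tek in endothelial cells: day 14 against day 7 gave 0.54 (SE 0.25, adjusted p = 0.296) and day 11 against day 7 gave -0.42 (SE 0.26, adjusted p = 0.339). Ehd3-bearing and Plvap-bearing cells differed by 0.06 (SE 0.17, adjusted p = 0.882).

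**Figure D5:**
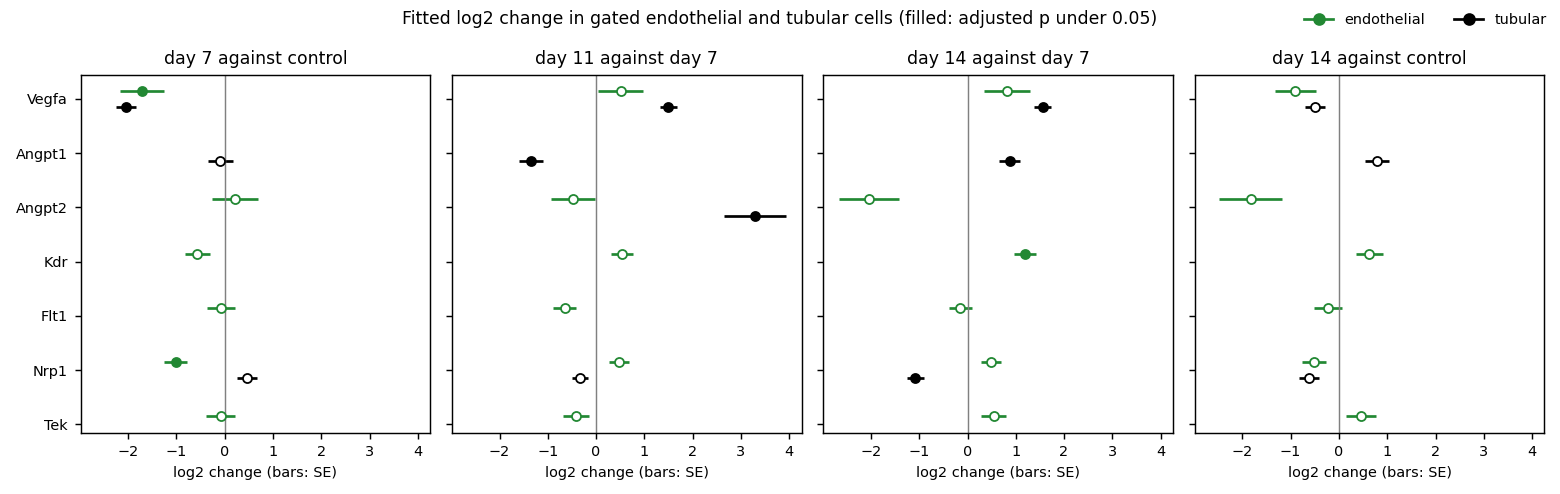
Fitted log2 change (horizontal axis, with SE) of each ligand and receptor in endothelial and tubular cells for 4 contrasts of days, filled where the adjusted p was under 0.05. Tubular Vegfa moves from -2.05 at day 7 against control to 1.5 and 1.56 in the later contrasts against day 7, and endothelial Kdr stands at 1.19 at day 14 against day 7.

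As a group, 6 of the 7 genes passed the filter on low counts in endothelial cells (Angpt1 did not) and all 7 in tubular cells. In endothelial cells 2 fell at day 7 against control (Vegfa and Nrp1), as did 2.57% of all genes tested, and 1 rose at day 14 against day 7 (Kdr), as did 2.55%. None passed at day 11 against day 7 by edgeR, where 10.3% of genes passed (3 at an unadjusted p under 0.05; 0 by DESeq2), or at day 14 against control, where 2.11% of genes passed (4 unadjusted; 0 by DESeq2). With only the groups compared in the fit, endothelial Kdr (0.61, adjusted p = 0.0376) and Nrp1 (-0.54, adjusted p = 0.0389) passed at day 14 against control. In tubular cells 1 fell at day 7 against control (Vegfa), as did 18.9% of all genes. Tubular Kdr (1.38) and Flt1 (0.68) did not pass there, but did so in 5 and 2 of 13 alternatives, at levels of 1.34 to 10.95 and 1.98 to 18.0 CPM. At day 11 against day 7, 2 rose (Vegfa and Angpt2) and 1 fell (Angpt1), beside 23.3% and 21.4% of all genes. At day 14 against day 7, 2 rose (Vegfa and Angpt1) and 1 fell (Nrp1), beside 24.3% and 22.3%. None of the 7 passed at day 14 against control in tubular cells by edgeR, where 7.98% of genes did (4 unadjusted; 0 by DESeq2). With only the groups compared in the fit, 3 passed there: Vegfa (-0.55, adjusted p = 0.0295), Angpt1 (0.73, adjusted p = 0.0133) and Nrp1 (-0.67, adjusted p = 0.0173). Tubular Kdr (1.63) passed at day 14 against control in 2 of 13 alternatives. Tubular Nrp1 also passed with no filter on low counts (-0.70, adjusted p = 0.0430), without cells that had 2 markers of another class (-0.80, adjusted p = 0.0349) and in proximal cells alone (-0.84, adjusted p = 0.0445). Against tubular cells, 5 of the 7 were higher and 2 lower in endothelial cells (30.3% and 34.4% of all genes). In podocytes 2 were higher and 1 lower of 3 tested (16.5% and 29.4%), and in stroma 4 were higher and 1 lower of 5 tested (13.9% and 25.7%). These counts are partly set by the filter on low counts, which a gene could pass through 1 class alone. Angpt2, at 0.298 to 4.52 CPM in tubular cells, entered through its endothelial or stromal level, and genes low in each class compared were not tested. In Ehd3-bearing cells 2 of 4 tested were higher than in Plvap-bearing cells (9.89%). The 3 contrasts that involve day 7 share its libraries, and the 2 against control share the single control library.

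The change itself was compared between the 2 classes. For Nrp1 the endothelial minus the tubular change was -1.5 for day 7 against control (SE 0.23, adjusted p = 5.62e-09) and 1.62 for day 14 against day 7 (SE 0.19, adjusted p = 3.95e-15). Of 14563 genes, 9.82% and 9.61% passed in these 2 tests, 5.34% with a lower value in the first and 4.59% with a higher value in the second. Kdr gave differences of -1.85 (SE 0.35, adjusted p = 7.62e-06) and 0.90 (SE 0.28, adjusted p = 0.0183), with a tubular level of only 1.34 to 10.95 CPM. The Flt1 difference at day 7 against control was -0.70 (adjusted p = 0.274), and -1.85 to -0.24 over 6 alternatives, 3 of them past the threshold. The second Kdr difference missed the threshold with a gate of at least 3 markers (0.65, adjusted p = 0.366). With totals alone the differences were -2.09 and 2.27 for Nrp1 and -2.44 and 1.55 for Kdr.

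Other ligands and receptors of both families were read from a list of 10, of which Figf is the older symbol of Vegfd. In endothelial against tubular cells, 5 of 6 tested genes were higher and 1 was lower (30.3% and 34.4% of all genes), with a median of 5.45 against -0.04 for all genes. The higher ones were the receptors Tie1 (7.22), Flt4 (5.65) and Nrp2 (5.25), the phosphatase Ptprb (7.07), which acts on Tek, and the lymphatic ligand Vegfc (4.21), while the ligand Vegfb was lower (-1.62). In stromal against tubular cells, 3 of 4 were higher (13.9% of all genes): the Flt1 ligand Pgf (6.70), Nrp2 (4.40) and Ptprb (1.35). In podocytes against tubular cells, where 45.8% of all genes passed, Vegfb was lower (-1.73) and Ptprb higher (1.81). The podocyte gate held endothelial markers at 1498, 1426 and 991 CPM in the day 1 and day 7 libraries, and their part in the Ptprb value was not tested. In Ehd3-bearing against Plvap-bearing cells, 1 of 3 passed (22.0% of all genes), with Nrp2 lower (-0.67).

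By day, tubular Vegfb was 46.4 CPM in the control and 33.4 and 33.4 on day 7. Its fitted changes were -1.28, 0.59 and 1.07 (day 7 against control, day 11 and day 14 against day 7), all past the threshold. With totals alone none was past it, and the day 11 value was -0.20. Figf gave -2.32, 2.17 and 2.06 at no more than 2.77 CPM, and Flt4 4.29, -1.90 and -2.72 at no more than 3.01 CPM. The 6 endothelial markers in the same tubular gate were 17 CPM in the control and 52 and 25 CPM on day 7, and their part in the Flt4 value was not tested. Nrp2 rose at day 7 (3.82) from 0.50 to 16.1 and 9.73 CPM and fell at day 11 (-3.70) and day 14 (-3.65). Macrophage markers in the same tubular gate were 6.92 CPM in the control and 167 and 59.0 CPM on day 7, and their part in the Nrp2 value was not tested. In tubular cells 4 of 8 tested genes of this list passed in each of these 3 contrasts, beside 36.3%, 44.7% and 46.6% of all genes tested. None passed at day 14 against control (edgeR; 1 at an unadjusted p under 0.05), where 7.98% of all genes did. In endothelial cells, 2 of 6 passed at day 11 against day 7 (10.3% of all genes), Flt4 (-1.84) and Nrp2 (-0.98). None passed in the other 3 contrasts (day 7 against control, day 14 against day 7 and day 14 against control), beside 4.39%, 4.6% and 2.11% of all genes.

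A list of 14 genes of receptor signalling and endothelial response held 11 tested genes in endothelial cells. At day 7 against control, where 4.39% of all genes passed, 2 rose, the peptide ligand Apln (2.51) and its receptor Aplnr (2.35). Endothelial Apln was 13.03 CPM in the control, 50 and 107 on day 7, 12.5 and 3.29 on day 11, then 3.42 and 17.5 on day 14. Apln fell at day 11 (-3.00) and day 14 (-2.97) against day 7, and the protease gene Adamts1 rose at day 11 (1.34). At day 14 against control 0 of 11 passed by edgeR, with 1 at an unadjusted p under 0.05, beside 2.11% of all genes. In tubular cells, where 36.3% of all genes passed, 2 of 13 rose at day 7 against control, Adamts1 (2.46) and Tnip2 (1.60). Tubular Adamts1 was 54.3 CPM in the control, 629 and 421 on day 7, 129 and 137 on day 11, then 83.5 and 125 on day 14, and it fell at day 11 (-1.18) and day 14 (-1.47) against day 7. Tnip2 fell in both later contrasts (-0.75 and -0.99) and the adaptor Shb fell at day 11 (-0.82). Tubular Apln, at no more than 1.66 CPM, gave 1.54 and 1.52, and the transcription factor Foxo1 gave 0.58 at day 14, but -0.27 with totals alone.

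In endothelial against tubular cells, 9 of 11 genes of that list were higher and 1 was lower, beside 30.3% and 34.4% of all genes. The largest differences were those of the nitric oxide synthase Nos3 (7.02), Aplnr (6.51), the tip cell gene Esm1 (6.32) and the Notch ligand Dll4 (6.16). Smaller ones were Plcg1 (2.25), Foxo1 (1.73), Adamts1 (1.65), Ptk2 (1.56) and Tnip2 (1.18), and Shb was lower (-1.35). In stromal against tubular cells, Tnip2 (1.44), Ptk2 (1.37), Adamts1 (1.08) and Plcg1 (0.87) were higher and Rcan1 (-1.29) and Shb (-3.51) lower, which made 6 of 7 tested, beside 39.6% of all genes. In podocytes, 2 of 7 passed, Shb (-1.73) and Adamts1 (-1.25), beside 45.8% of all genes. Adamts1 was higher in Ehd3-bearing than in Plvap-bearing cells (1.01), the only 1 of 2 tested that passed (22.0% of all genes). The change at day 7 differed between endothelial and tubular cells for Apln (4.05), Tnip2 (-2.04), Adamts1 (-3.13) and, from the family list, Nrp2 (-2.68). At day 14 against day 7 it differed for Apln (-4.55), Adamts1 (2.17) and Nrp2 (3.12).

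Oxygen sensing, the pathway through which low oxygen raises Vegfa transcription, was read from 8 genes. Egln3, a prolyl hydroxylase and itself a target of hypoxia-inducible factors, had the clearest time course. In endothelial cells it was 10.1 CPM in the control, 28.7, 49.6 and 45.6 on days 1, 2 and 4, 117 and 75.1 on day 7, 4.18 and 3.29 on day 11, then 17.1 and 21.8 on day 14. In tubular cells it was 4.07, 19.0, 14.4, 13.9, 30.4 and 25.4, 2.99 and 3.64, and 4.66 and 5.79 CPM. Day 7 was the highest day in both classes, and did not overlap days 11 and 14. Egln3 rose at day 7 against control (endothelial 2.92, tubular 1.95) and fell at day 11 (-4.21 and -2.27) and day 14 (-2.06 and -1.55) against day 7.

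The other oxygen sensing genes had smaller changes. In endothelial cells, Epas1 (hypoxia-inducible factor 2 alpha) was lower at day 7 against control (-0.99), so that 2 of 5 tested genes passed there (4.39% of all genes), and Egln3 was the only 1 that passed at day 11 and at day 14 against day 7 (10.3% and 4.6% of all genes). At day 14 against control 0 of 5 passed by edgeR, with 0 at an unadjusted p under 0.05, beside 2.11% of all genes. In tubular cells, 3 of 7 passed at day 7 against control (36.3% of all genes), with Egln1 (-1.52) and Hif1a (-0.56) lower. Hif1a gave 0.24 with totals alone. At day 11 against day 7, 4 of 7 passed (44.7% of all genes), and Epas1 (0.63), Egln1 (0.59) and Egln2 (0.69) were higher, but all 3 were negative with totals alone. At day 14 against day 7, 5 of 7 passed (46.6%), and Epas1 (1.45), Egln1 (1.09), Egln2 (0.70) and Vhl (0.76) were higher, and Egln2 and Vhl were negative with totals alone. Hif1a was lower at day 14 against control (-0.78), the only 1 of 7 that passed (7.98% of all genes). Between classes, 3 of 7 tested genes were higher and 0 lower in endothelial than in tubular cells (30.3% and 34.4% of all genes). In podocytes 2 of 7 were higher and 0 lower (16.5% and 29.4%), and in stroma 13.9% of all genes were higher. Epas1 was higher in endothelial (5.10), stromal (4.35) and podocyte (1.79) than in tubular cells, Egln3 in endothelial (1.29) and podocyte (1.04), and Arnt in endothelial cells (0.68). The part of the endothelial markers in the podocyte gate in the Epas1 value was not tested. The day 14 against day 7 change of Epas1 differed between endothelial and tubular cells (-0.86), but not past the threshold with totals alone (-0.20, adjusted p = 0.775).

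Across 103 sums of a class in a library, the genes most like each of the 7 were found by Pearson's r of log2(CPM + 10) over 13409 genes, as a description, since the sums of a library share its depth. Vegfa was most like Col4a3 (r = 0.83) and Hs3st6 (0.78), Angpt1 like Myh10 (0.65) and Slc8a1 (0.61), and Angpt2 like Gucy1b3 (0.93) and S1pr3 (0.93). Kdr was most like Rasgrp3 (0.95) and Rasip1 (0.94), Flt1 like Erg (0.92) and Ushbp1 (0.92), Tek like Myct1 (0.92) and Mmrn2 (0.89), and Nrp1 like Amotl1 (0.89) and Meis2 (0.88). Among the 7 themselves, Kdr and Flt1 (0.89), Kdr and Tek (0.87) and Flt1 and Tek (0.85) were closest, and Vegfa was at -0.12 to 0.18 with the other 6.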

How the data were processed

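Single-cell suspensions of kidney cortex were processed by Drop-seq, per the labels' protocols. The authors deposited 1 table of counts per gene symbol and cell barcode for each of 10 libraries (64803 barcodes, 173806985 counts, 7091848 to 31632205 per library). The labels do not name the counts as UMIs; they were read as such. The submitters' processing notes name Bowtie2 2.2.7 and the build mm10; the counting tool and annotation are not given in the sources used here. Tables hold no barcode under 500 genes except those of day 11, which go down to 300.

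Cells were the 52797 barcodes that reached 500 UMIs and 500 genes and had mitochondrial shares up to 50%. A cell took the class with most of its 6 markers detected (at least 2, no tie; 77 of 78 markers had a row), and ties stayed unassigned. No doublet caller was run; leaving out cells with 2 markers of another class was an alternative. Of the barcode sequences, 62 occurred in more than 1 library, at most 4 between any pair. UMIs were summed per class and library and tested with edgeR 4.0.16 (R 4.3.3; filterByExpr, TMM, quasi-likelihood test, Benjamini-Hochberg over all genes, threshold 0.05). Contrasts of days came from 1 fit over 10 libraries with 3 residual degrees of freedom, so the single libraries were assumed to vary like the replicated days. Classes were compared with library as a block, and the difference of changes by an interaction term. Between classes a gene could pass the filter through 1 class alone, so counts of listed genes that were higher are partly set by it. Changes are on the log2 scale. In the main fits none is given where a gene missed the threshold and its median level in a class was under 20 CPM. Exceptions are tubular Kdr and Flt1 and the Flt1 difference of changes. Intervals are exact, at 95%, and cover counting error only. The scripts were tested on simulated data. Tables and sums were handled in Python 3.11.15 with pandas 2.3.3 and scipy 1.17.1.

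The 7 genes and the gene lists were chosen with earlier results of these data known. Named were the 7 genes, every gene of 3 further lists past the threshold, and the 2 genes most like each of the 7 (at least 200 UMIs over sums of at least 20 cells, outside the markers). Vegfd had no row, and 31 of 32 genes of the further lists were in the tables. Alternatives were DESeq2 1.42.0, another scaling, no filter on low counts, a gate of at least 3 markers, at most 25% mitochondrial UMIs, only the groups compared, a replicate block, subclasses and each replicate left out. Totals without scaling factors, thick limb and principal cells alone, podocytes without days 1 and 7, and the comparison of Ehd3-bearing with Plvap-bearing cells were chosen after seeing the data.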

Additional observations from a re-analysis of the deposited data

Results flagged for a closer look

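For 2 of the 7 genes the change between days differed between endothelial and tubular cells by a test of the difference itself (edgeR, class by day interaction with library as a block), which 9.82% and 9.61% of 14563 genes passed in the 2 contrasts tested. Nrp1 gave a difference, endothelial minus tubular change on the log2 scale, of -1.5 for day 7 against control (SE 0.23, adjusted p = 5.62e-09) and 1.62 for day 14 against day 7 (SE 0.19, adjusted p = 3.95e-15). Endothelial Nrp1 was 3520 CPM in the control and 1929 and 2063 on day 7, while tubular Nrp1 was 58.0 CPM in the control and 154 and 128 on day 7. In the tubular gate the 5 macrophage markers summed to 6.92 CPM in the control and 167 and 59.0 CPM on day 7, and macrophages had Nrp1 at 236 and 266 CPM on day 7. Over 6 alternatives, 1 of which left out cells that had 2 markers of another class, the Nrp1 differences were -2.09 to -1.58 and 1.67 to 2.27, all past the threshold. The part of cells with fewer such markers was not tested. Kdr gave -1.85 (SE 0.35, adjusted p = 7.62e-06) and 0.90 (SE 0.28, adjusted p = 0.0183) in the same contrasts. With a gate of at least 3 markers the second Kdr difference missed the threshold (0.65, adjusted p = 0.366). Flt1 did not pass at day 7 against control (-0.70, adjusted p = 0.274), but did in 3 of 6 alternatives (-1.85 to -0.24 over the 6). Tubular Kdr was 1.34 CPM in the control and 10.7 and 3.13 on day 7, beside 17, 52 and 25 CPM of the 6 endothelial markers in the same gate, whose part in the difference was not tested.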

How the results depend on the processing

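Limits and depth: the control and days 1, 2 and 4 are single libraries. Endothelial Angpt2 and Apln, tubular Angpt2, thick limb Angpt1 and stromal Vegfa, Angpt1 and Flt1 rest on few UMIs. The counts that follow cover changes that had passed or had a median level of at least 20 CPM. Over all alternatives, changes of the 7 genes that had passed gave 238 values with the same call, 25 that missed the threshold and 1 with the opposite sign. Changes that had not passed gave 325 with the same call, 23 past the threshold and 26 with the opposite sign. Of the latter, 1 was past the threshold (tubular Angpt1 at day 7 against control with totals alone, 0.72, adjusted p = 0.0455). Levels per library moved by more than their spread in 44 of 280 values with a gate of at least 3 markers and in 9 of 280 with at most 25% mitochondrial UMIs. The cause was not tested for any of the changes below.

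Endothelial genes past the threshold numbered 343, 803, 359 and 165 (day 7 against control, day 11 against day 7, day 14 against day 7, day 14 against control). Without cells that had 2 markers of another class they were 215 at day 7 against control, 235 at day 14 against day 7 and 59 at day 14 against control. DESeq2 gave 62, 189, 102 and 12. Fewer cells enter with Ehd3-bearing cells alone (148, 363, 196 and 86) and Plvap-bearing cells alone (44, 131, 69 and 23). With only the groups compared, the last pair was 215 and 514, and with no filter the last was 280. Leaving out 1 replicate gave 178 to 333, 297 to 563, 202 to 256 and 79 to 119.

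Tubular genes past the threshold numbered 5811, 7157, 7450 and 1277. Thick limb cells alone gave 2631, 3389, 2702 and 221, principal cells alone 1046, 1562, 1951 and 244, and proximal cells alone 4451 and 4168 for day 11 and day 14 against day 7. Totals alone gave 8976 at day 7 against control. At day 14 against control, no filter gave 2401 and only the groups compared 3522. Leaving out 1 replicate gave 5080 to 5609, 4655 to 6530, 5270 to 6636 and 229 to 459.

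The share of called genes that were higher moved by over 10 points with totals alone in endothelial cells (41.4% to 61.6%, 56.4% to 28.8% and 55.4% to 38.1% for the first 3 contrasts). It moved likewise in endothelial (46.8% to 58.9%), podocyte (35.9% to 54.5%) and stromal (35.1% to 50.3%) against tubular cells. For the difference of changes it went from 45.6% to 10.4% and from 47.8% to 91.6%. With relative log expression (RLE) scaling in edgeR the second of these was 60.0%. For tubular day 14 against control the share went from 56.9% to 45.9% with RLE scaling.

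Leaving out 1 replicate gave ranges across 0 in endothelial cells for Flt1 (-0.29 to 0.11) and Tek (-0.38 to 0.13) at day 7 against control, and for Vegfa (-0.045 to 0.82) and Angpt2 (-0.99 to 0.0048) at day 11 against day 7. The same held for Vegfa (-0.31 to 1.34) and Flt1 (-0.44 to 0.071) at day 14 against day 7, for Flt1 (-0.48 to 0.024) at day 14 against control, and for tubular Angpt1 (-0.33 to 0.15) at day 7 against control. In Ehd3-bearing cells alone, Vegfa (-0.075) and Tek (0.14) turned at day 11. In Plvap-bearing cells alone, Kdr (-0.49) and Nrp1 (-0.33) turned at day 11, Tek (-0.20) at day 14, and Kdr (-0.51) and Tek (-0.26) at day 14 against control. Tubular Angpt1 at day 7 against control turned with a gate of at least 3 markers (0.082), at most 25% mitochondrial UMIs (0.17), proximal cells alone (0.66) and totals alone (0.72), and at day 11 with thick limb cells alone (0.93). Tubular Nrp1 turned in proximal cells alone at day 7 (-0.48) and day 11 (0.59). Endothelial Flt1 (0.13) and Tek (0.12) at day 7 turned with totals alone. The difference of changes of Vegfa at day 7 turned with a gate of at least 3 markers (-0.23) and totals alone (-0.26), and that of Kdr at day 14 missed the threshold with that gate (0.65, adjusted p = 0.366).

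Replicate numbers are shared by days 7, 11 and 14, but same-numbered libraries did not deviate together (correlations of -0.066 to 0.066 in endothelial and -0.054 to 0.091 in tubular cells), so the numbers were not taken as pairs. With a replicate block, 725 and 272 endothelial and 7228 and 7332 tubular genes passed at day 11 and day 14 against day 7, and no call of the 7 genes changed.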
